A study of Mus musculus with 6 samples.

Results

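The collagen chain genes are the genes that encode the alpha chains of the collagens. They were taken as every gene symbol of the count table made of Col, a number, the letter a and a number, such as Col1a1, which gave 44 of 55453 symbols. By class these were 11 chains of fibrillar collagens, 6 chains of the basement membrane collagen type IV, 9 chains of FACIT collagens and 18 chains of other collagens. Genes of other families that carry a collagen-like stretch under another name were not among them.

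Collagens are extracellular proteins in which 3 alpha chains wind around each other in a triple helix. Fibrillar collagens form the banded fibres of connective tissue, type IV collagen forms the sheet of the basement membrane, and FACIT collagens are chains with interrupted helices that sit on the surface of fibrils. The chains are modified and folded in the endoplasmic reticulum, secreted, trimmed at their ends and crosslinked outside the cell. In brain tumours collagen is found mainly around vessels and in tumours with a mesenchymal character, and normal brain parenchyma holds little fibrillar collagen.

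The libraries were made from poly(A) RNA of SB28, a mouse glioma cell line, and fell into 2 groups of 3. PP2AcWT carried the genotype label Wild Type and PP2AcKO the label PP2A KO, where PP2Ac is the catalytic subunit of protein phosphatase 2A, and the strain label of both groups was C57BL/6. No further allele, agent, time or animal age stood in the sample labels. The design text of the series instead describes SB28 tumours grown under the skin or in the brain of wild-type hosts and of LysM-Cre hosts with a floxed PP2Ac gene, taken after 18 days, where LysM drives Cre in myeloid cells. Whether the knockout lies in SB28 or in host cells, whether the RNA came from cultures or tumours, and whether a knockout line was 1 clone cannot be told apart from these labels. Nothing states that the replicates were separate cultures or animals, so the p-values speak only of the spread among these libraries, and that spread may be technical. The groups are called wild type and knockout below, after their labels.

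Total counts per library were 38735864 to 49344079 in wild type and 40245915 to 46149908 in the knockout, so depths overlapped. Ppp2ca, which encodes the PP2A catalytic subunit alpha, had 274, 244 and 247 CPM, the counts scaled to a library of common size, in wild-type libraries 1 to 3 and 217, 187 and 193 CPM in knockout libraries 1 to 3, a fall of 0.36 on the log2 scale (SE 0.08, edgeR adjusted p = 0.00377). Ppp2ca RNA was thus lower but far from absent in the libraries labelled knockout. The labels name PP2Ac but no gene symbol, and RNA counts do not show how much protein was made. All 9 myeloid markers and all 6 T cell markers were below 1 CPM in both groups. The glial markers Aqp4, Olig2 and Sox10 had 0 counts in all 6 libraries, so a glial identity was not seen in the defining markers listed. The library numbered 1 stood apart from numbers 2 and 3 in both groups. Collagen chain genes took 0.595%, 0.767% and 0.736% of the counts in the wild-type libraries and 0.460%, 0.601% and 0.597% in the knockout libraries, so the lowest value of each group belonged to number 1.

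Among the 32 collagen chain genes with enough counts to be tested, 9 were higher and 11 were lower in the knockout at an adjusted p below 0.05, and 12 did not pass. Of the tested chains, 8 passed the filter on low counts through 1 group only (Col4a3, Col4a4, Col15a1 and Col19a1 through wild type, Col11a2, Col22a1, Col23a1 and Col24a1 through the knockout), so counts over tested chains are a description. Called chains were 62.5% of those tested, beside 64.0% of all 14877 genes tested. By direction the background was 31.9% higher and 32.1% lower. The share of chains called was therefore close to that of genes in general. Against a fold change of 1.5, 7 of the 32 tested chains were higher and 7 lower, larger shares than the 13.5% and 13.2% of all genes. These include Col11a2, Col23a1 and Col24a1 among the higher and Col4a3, Col4a4, Col15a1 and Col19a1 among the lower. Each was tested through 1 group only, so the larger shares are a description. The 6 CPM values of 20 chains separated without overlap, beside 68.3% of all genes. The median log2 fold change was -0.15 over the chains and -0.0074 over all genes, and the median absolute log2 fold change was 0.65 over the tested chains and 0.47 over all genes. Of the 24 chains with a mean of at least 1 CPM in a group, 8 were higher, 7 lower and 9 did not pass. Against a fold change of 1.5, 6 of these 24 were higher and 3 lower, beside the same 13.5% and 13.2% of all genes. Their median absolute log2 fold change was 0.47, so the larger median over the tested chains came with the rare ones. The 0.47 of all genes is not a matched value, since rare genes are part of it. With a filter of 1 CPM in 3 libraries, 4241 genes were higher and 4270 lower of 12483 tested. Blocking on the replicate number, 11 chains were higher and 15 lower, beside 77.3% of all genes called. Leaving out both libraries numbered 1 also gave 11 and 15, beside 74.6% of all genes called. The values of Col1a2, Col23a1, Col5a3, Col8a1, Col11a1 and Col4a6, the 6 chains above 1 CPM with the smallest p-values, kept their call under every setting tried, the test against a fold of 1.5 included, with the limit that Col23a1 passed the filter through the knockout alone.

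**Figure D1:**
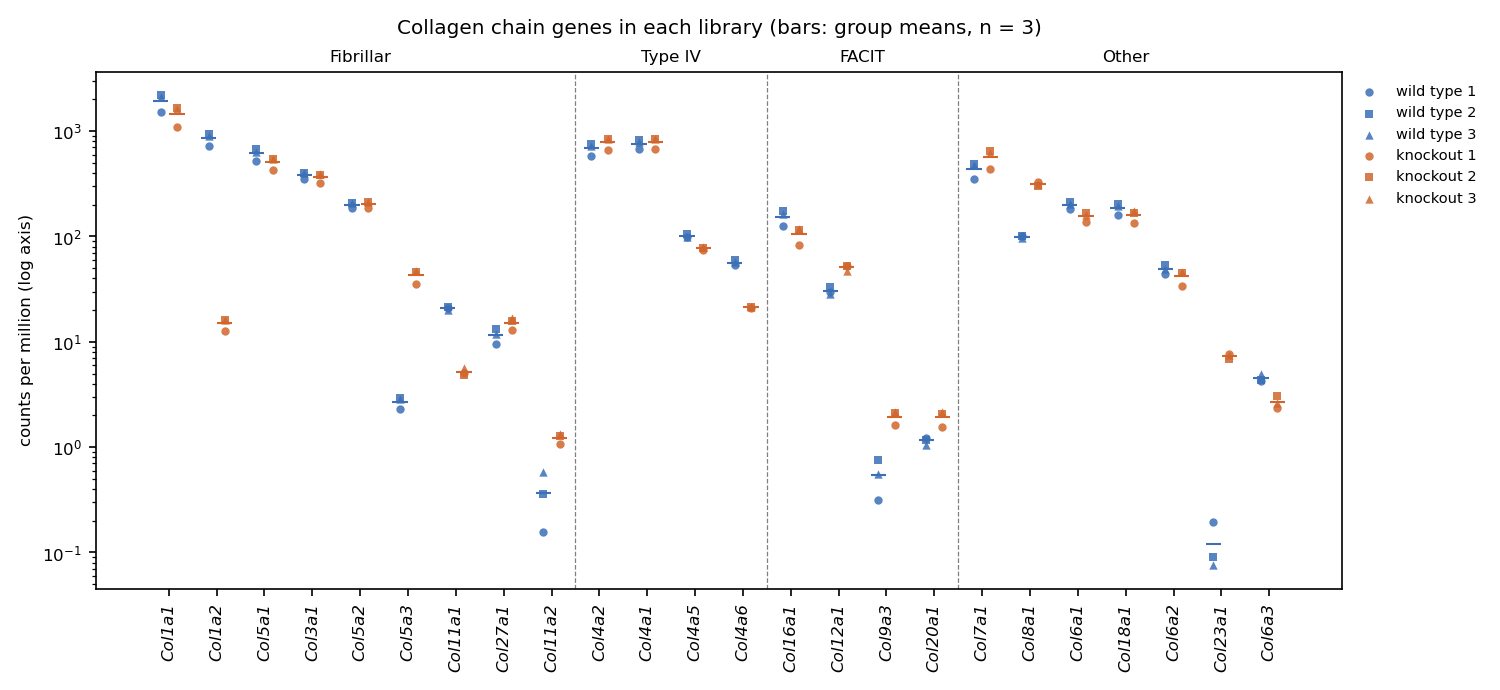
CPM of each collagen chain gene with a mean of at least 1 CPM in a group, on a log axis, with 1 point per library and the wild-type libraries in blue and the knockout libraries in orange. Col1a2 lies between 726 and 939 CPM in wild type and between 12.6 and 16.3 CPM in the knockout, and Col5a3, Col8a1 and Col23a1 separate in the other direction.

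Fibrillar collagens. Of the 11 chains of this class, 10 were tested, 4 were higher, 2 were lower and 4 did not pass (60% called, beside 64.0% of all genes). The chains that differed most were Col1a2 and Col11a1, which fell, and Col5a3, which rose, whereas the abundant chains Col3a1 and Col5a2 had nearly the same level in both groups. Col1a2 encodes the alpha 2 chain of type I collagen, the main fibrillar collagen of skin, tendon and bone. It had 726, 939 and 900 CPM in the wild-type libraries and 12.6, 16.3 and 16.2 CPM in the knockout libraries. Every knockout library lay far below every wild-type library, and each still held 563 or more Col1a2 counts. The mean was 855 ± 114 CPM (SD, n = 3) in wild type and 15.0 ± 2.08 CPM (SD, n = 3) in the knockout, 57.0-fold lower (log2 fold change -5.83, SE 0.15, edgeR adjusted p = 1.27e-08). In bulk RNA, fewer cells that express a gene and less of its RNA per cell cannot be told apart, here and in all that follows.

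Col1a1 encodes the alpha 1 chain, which type I collagen holds in 2 copies beside a single alpha 2 chain. It had 1513, 2182 and 2100 CPM in wild type and 1103, 1665 and 1609 CPM in the knockout. The groups overlapped because wild-type library 1 lay below 2 of the knockout libraries. The log2 fold change was -0.41 (SE 0.18, edgeR adjusted p = 0.0726), so the chain did not pass in the fit used throughout. It passed in some other settings without the block, such as DESeq2 (adjusted p = 0.0423) and upper-quartile factors (edgeR adjusted p = 0.0441), and not in others. Blocking on the replicate number gave an adjusted p of 1.34e-08. Over all settings other than the test against a fold of 1.5, it ran from 1.09e-08 to 0.22. The ranges of adjusted p given for other genes leave out that test too, and none of the genes whose call changed with the block was called in it. Col1a1 lies on chr11:94936224-94953042 and Col1a2 on chr6:4504814-4541544, both on the + strand of GRCm38, so the partners are on different chromosomes. For each 100 counts of Col1a1, the wild-type libraries held 48.0, 43.0 and 42.9 counts of Col1a2, and the knockout libraries 1.14, 0.976 and 1.005. Per kb of the longest transcript, the Col1a2 level was 0.495 of the Col1a1 level in wild type and 0.0116 in the knockout.

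Upstream sequence of Col1a2 is shown because this chain had the largest fall, next to that of Col23a1, Col5a3 and Col8a1, the 3 higher chains with the smallest p-values. All are on build GRCm38.p6, 5′ to 3′ on the gene's strand, and end at the base before the RefSeq start site. The exception is Col1a2, of which the 123 bases lying 248 to 126 bases before its start site are given, since annotated transcripts begin further upstream and cover the rest. They are chr6:4505370-4505492 (+) for Col1a2, chr11:51289670-51289919 (+) for Col23a1, chr9:20815068-20815317 (-) for Col5a3 and chr16:57754738-57754987 (-) for Col8a1. Capitals mark each GGGCGG or its reverse complement CCGCCC, and each CCAAT.
Col1a2: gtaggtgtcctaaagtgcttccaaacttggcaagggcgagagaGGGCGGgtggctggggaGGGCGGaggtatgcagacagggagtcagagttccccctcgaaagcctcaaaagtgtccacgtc
Col23a1: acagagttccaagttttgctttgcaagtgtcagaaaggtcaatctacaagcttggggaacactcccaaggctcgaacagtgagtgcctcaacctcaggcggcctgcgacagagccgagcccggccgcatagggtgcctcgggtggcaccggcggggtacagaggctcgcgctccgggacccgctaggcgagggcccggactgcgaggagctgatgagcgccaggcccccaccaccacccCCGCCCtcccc
Col5a3: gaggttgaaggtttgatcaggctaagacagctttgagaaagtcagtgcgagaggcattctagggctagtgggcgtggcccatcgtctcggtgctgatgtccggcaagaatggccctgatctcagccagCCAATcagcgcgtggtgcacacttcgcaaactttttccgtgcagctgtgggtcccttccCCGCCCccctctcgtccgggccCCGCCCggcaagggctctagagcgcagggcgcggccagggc
Col8a1: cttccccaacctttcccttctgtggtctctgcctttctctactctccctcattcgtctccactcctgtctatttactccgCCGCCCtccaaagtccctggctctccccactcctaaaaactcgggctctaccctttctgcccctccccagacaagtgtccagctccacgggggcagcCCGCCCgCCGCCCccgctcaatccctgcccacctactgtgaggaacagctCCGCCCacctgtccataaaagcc
Stretches with a GGGCGG match stood in all 4, on 1 to 4 occasions, so the chain that fell and the chains that rose were not separated by it. Each motif was searched on both strands, and none of those named here contains another. Over the 250 bases before each start site, GGGCGG was found in 22 of 38 promoters of collagen chains (57.9%) and in 32.7% of all 32851 promoters. CCAAT was found in 34.2% of the collagen promoters and 33.9% of all, and TATAAA in 13.2% and 12.4%. TGANTCA was found in the Col6a1 promoter and no other collagen promoter, and in 6.75% of all. Median GC content was 59.0% over the collagen promoters and 52.4% over all, which goes the same way as the GGGCGG share. A promoter entry was held for 35 of the 44 genes, and the genes without one were Col1a1, Col2a1, Col4a3, Col5a2, Col9a3, Col12a1, Col14a1, Col22a1 and Col26a1.

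Type V and type III chains join type I collagen in the same fibrils. Col5a3 encodes the least widespread type V chain. It had 2.29, 2.93 and 2.87 CPM in wild type and 35.8, 46.4 and 47.4 CPM in the knockout. All 3 knockout libraries lay above all 3 wild-type libraries, with means of 2.7 ± 0.351 and 43.2 ± 6.45 CPM (SD, n = 3). The chain was 16.1-fold higher in the knockout (log2 fold change 4.01, SE 0.15, edgeR adjusted p = 8.07e-08). Col5a1, the chain found in nearly every type V trimer, had 525, 679 and 640 CPM in wild type and 432, 546 and 544 CPM in the knockout. Its groups overlapped, and the log2 fold change of -0.28 (SE 0.12) did not pass, with an edgeR adjusted p of 0.0687. With the replicate block the adjusted p was 1.79e-06, in a range of 1.75e-06 to 0.228. Col5a2 had 186, 209 and 207 CPM in wild type and 188, 214 and 213 CPM in the knockout, and its log2 fold change of 0.032 (SE 0.08) did not pass (edgeR adjusted p = 0.737) and turned sign with upper-quartile factors (-0.032) and without wild-type library 1 (-0.019). Set against Col5a1 within each library, Col5a3 went from 0.431 to 0.449 counts per 100 in wild type to 8.28 to 8.72 in the knockout. Col5a2 went from 30.8 to 35.4 counts per 100 to 39.1 to 43.5, also without overlap.

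Col3a1, the chain of type III collagen that accompanies type I in soft tissue, had 351, 404 and 397 CPM in wild type and 321, 383 and 391 CPM in the knockout. The groups overlapped over most of their range (log2 fold change -0.073, SE 0.09, edgeR adjusted p = 0.515), and the direction turned, to 0.024, without knockout library 1. Col3a1 and Col5a2 lie tail to tail on chromosome 1, with 24.6 kb between their annotated ends. Col11a1, a chain of the minor fibrillar collagen best known from cartilage, had 21.0, 21.4 and 20.2 CPM in wild type and 5.09, 4.81 and 5.60 CPM in the knockout. The groups were narrow and well apart, and the chain was 4.04-fold lower in the knockout (log2 fold change -2.02, SE 0.09, edgeR adjusted p = 2.7e-07).

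Of the remaining fibrillar chains, Col27a1 was at a middling level and the others were rare. Col11a2, another type XI chain, had 0.157, 0.363 and 0.579 CPM in wild type and 1.08, 1.27 and 1.33 CPM in the knockout (log2 fold change 1.78, SE 0.36, edgeR adjusted p = 0.00200). Col24a1 rose from at most 0.0504 CPM in wild type to at least 0.342 CPM in the knockout (log2 fold change 3.24, edgeR adjusted p = 0.000176). Both passed the filter on low counts only through the knockout group, where they were higher, so their direction is a description and not independent of the filter. Over the settings tried, the log2 fold change ran from 1.38 to 2.25 for Col11a2 and from 2.80 to 3.46 for Col24a1. Col27a1 had 9.60, 13.2 and 11.8 CPM in wild type and 12.9, 15.7 and 17 CPM in the knockout. Its groups overlapped, and its log2 fold change of 0.40 (SE 0.14) had an edgeR adjusted p of 0.0342. That call was lost with upper-quartile factors (0.0654) and without wild-type library 1 (0.0941), wild-type library 3 (0.0712), knockout library 2 (0.0737) or knockout library 3 (0.117), in a range from 0.000103 to 0.117. It was also lost in the test against a fold of 1.5. Col2a1, the main cartilage chain, was too rare to be tested, with 27 counts over the wild-type libraries and 7 over the knockout libraries (depth-scaled ratio 3.57, 95% exact interval 1.52 to 9.70, counting error only).

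**Figure D2:**
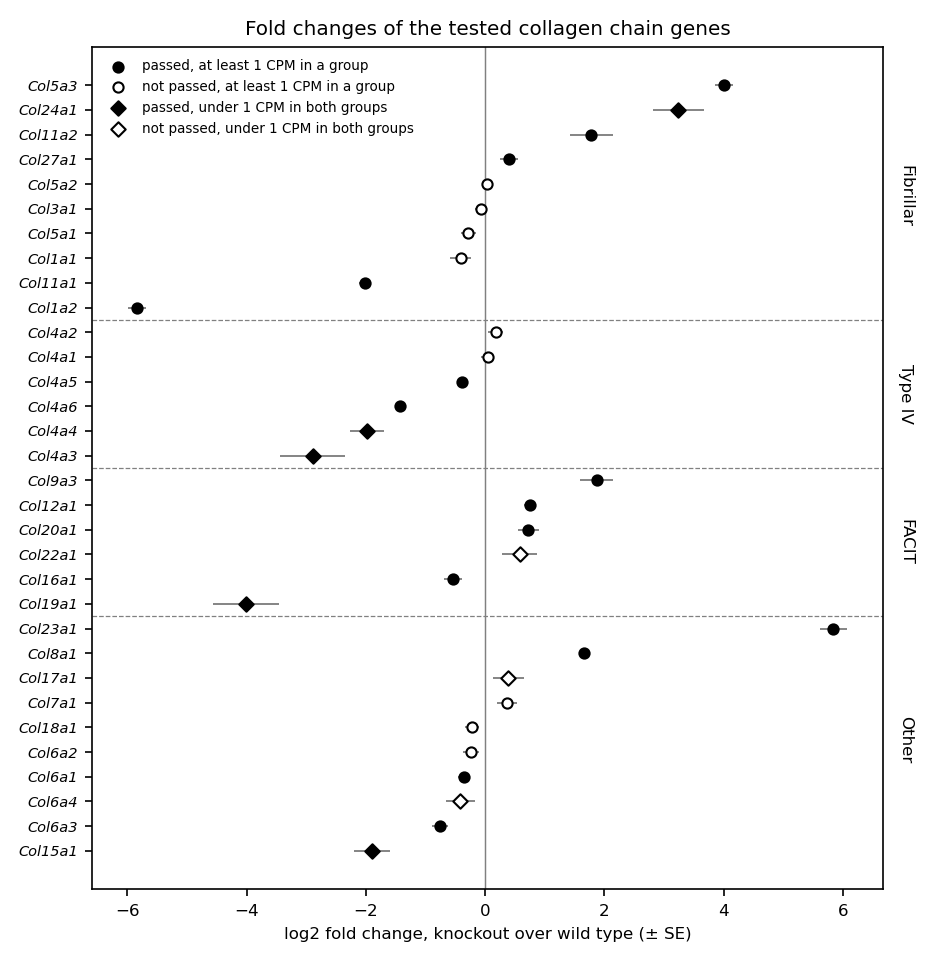
Log2 fold change, knockout against wild type, of the 32 tested collagen chain genes by class, with bars of 1 standard error filled symbols for chains that passed, open symbols for those that did not, and diamonds for chains under 1 CPM in both groups. Type IV chains that passed lie below 0, while the fibrillar class spans -5.83 (Col1a2) to 4.01 (Col5a3).

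Basement membrane collagen. All 6 type IV chains were tested. None was higher, 4 were lower and 2 did not pass (66.7% called, beside 64.0% of all genes). The 2 that did not pass were the most abundant, while the rarest, Col4a3 and Col4a4, were tested only through wild type. Col4a1 and Col4a2 form the ubiquitous type IV trimer. Col4a1 had 676, 818 and 787 CPM in wild type and 675, 834 and 844 CPM in the knockout. Its groups overlapped nearly fully (log2 fold change 0.045, SE 0.11, edgeR adjusted p = 0.726), and the sign turned with upper-quartile factors (-0.018) and without wild-type library 1 (-0.032) or knockout library 3 (-0.0062). Col4a2 had 586, 760 and 731 CPM in wild type and 657, 847 and 852 CPM in the knockout, also overlapping (log2 fold change 0.18, SE 0.13, edgeR adjusted p = 0.236). With the replicate block Col4a2 was called higher (adjusted p = 0.000121, in a range of 7.3e-05 to 0.590). The libraries held 86.7, 92.9 and 92.9 counts of Col4a2 per 100 of Col4a1 in wild type and 97.3, 101 and 101 in the knockout, so the ratio separated the groups where neither chain did alone.

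The chains of the more restricted type IV networks fell. Col4a5 had 99.4, 105 and 99.6 CPM in wild type and 75.2, 77.1 and 80.2 CPM in the knockout (log2 fold change -0.38, SE 0.06, edgeR adjusted p = 0.000671). Its groups did not overlap, but the change missed the threshold when tested against a 1.5-fold change. Col4a6, which assembles with Col4a5 in some epithelial and smooth muscle basement membranes, had 53.7, 59.3 and 56.9 CPM in wild type and 20.8, 21.2 and 21.5 CPM in the knockout. It was 2.67-fold lower (log2 fold change -1.42, SE 0.07, edgeR adjusted p = 4.39e-07). Counts of Col4a6 per 100 of Col4a5 were 54.0 to 57.1 in wild type and 26.8 to 27.7 in the knockout. Col4a3 and Col4a4, the partners of Col4a5 in the glomerular basement membrane, were below 1 CPM everywhere. Col4a4 had 0.554 to 0.612 CPM in wild type and 0.122 to 0.179 CPM in the knockout (log2 fold change -1.98, edgeR adjusted p = 0.000291). Col4a3 had 0.431 to 0.568 CPM in wild type, 0 in knockout library 1 and at most 0.122 CPM in the others (log2 fold change -2.89, edgeR adjusted p = 0.00151). Both passed the filter only through the wild-type group.

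The type IV genes lie in pairs with their starts facing each other, and the members of each pair are shown here by their calls. Col4a1 and Col4a2 on chromosome 8 overlap by 22 bases at their annotated starts, and neither passed. Col4a3 and Col4a4 on chromosome 1 have 71 bases between their starts, and both fell. Col4a5 and Col4a6 on chromosome X have 1308 bases between their starts, and both fell, by different amounts. The strand setting of the counting is not given in the sources used here, so reads from the short stretch shared by Col4a1 and Col4a2 cannot be assigned to either. It covers 0.295% of the exon bases of Col4a1.

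FACIT collagens. Of 9 chains, 6 were tested, 3 were higher, 2 were lower and 1 did not pass (83.3% called, beside 64.0% of all genes). The abundant chains moved in opposite directions. Col12a1, which coats type I fibrils, had 29.6, 33.0 and 28.3 CPM in wild type and 52.9, 52.3 and 47.2 CPM in the knockout. The groups did not overlap, at 30.3 ± 2.44 and 50.8 ± 3.12 CPM (SD, n = 3), a 1.68-fold higher level in the knockout (log2 fold change 0.75, SE 0.09, edgeR adjusted p = 6.77e-05). Col16a1 had 126, 174 and 163 CPM in wild type and 83.9, 116 and 119 CPM in the knockout. The log2 fold change was -0.54 (SE 0.15, edgeR adjusted p = 0.0131). Without wild-type library 2 the call was lost (adjusted p = 0.0552, in a range from 1.67e-10 to 0.0552), and it was lost as well when tested against a fold of 1.5 (adjusted p = 0.775).

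The other FACIT chains were near or below 2 CPM. Col20a1 had 1.23, 1.18 and 1.06 CPM in wild type and 1.57, 2.05 and 2.17 CPM in the knockout (log2 fold change 0.73, SE 0.18, edgeR adjusted p = 0.00637). Col9a3, a type IX chain of cartilage, had 0.313, 0.748 and 0.554 CPM in wild type and 1.61, 2.10 and 2.15 CPM in the knockout (log2 fold change 1.87, SE 0.28, edgeR adjusted p = 0.000390). Its exons lie over those of Tcfl5 on the opposite strand for 6.07% of their length, and reads there cannot be told apart. The other type IX chains were at 0 counts (Col9a1) or at 3 counts in wild type and 0 in the knockout (Col9a2). Col19a1 had 58 counts in wild type and 3 in the knockout, a ratio of 17.9 with a 95% exact interval of 5.82 to 89.2 that covers counting error only, and it passed the filter only through the wild-type group. Col22a1 had 0.249 ± 0.0532 CPM in wild type and 0.370 ± 0.0349 CPM in the knockout (SD, n = 3) and did not pass (log2 fold change 0.58, edgeR adjusted p = 0.11). Col14a1 had 2 counts in wild type and 3 in the knockout.

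Other collagens. This class of 18 chains had 10 tested, with 2 higher, 3 lower and 5 not passing (50% called, beside 64.0% of all genes). The rises were those of a short chain network collagen and a transmembrane collagen, and the falls were those of beaded filament chains and a multiplexin. Col8a1, a chain of the network collagen of vessel walls and the cornea, had 100, 101 and 96.7 CPM in wild type and 328, 299.7 and 314 CPM in the knockout. The libraries of each group lay close together and the groups far apart, at 99.4 ± 2.42 and 314 ± 14 CPM (SD, n = 3). Col8a1 was 3.16-fold higher in the knockout (log2 fold change 1.66, SE 0.07, edgeR adjusted p = 1.03e-07). The other type VIII chain, Col8a2, had 4 counts in wild type and 2 in the knockout, and Col10a1 of the same class had 0.

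Col23a1 encodes a collagen that is anchored in the cell membrane and can be shed from it. It had 0.196, 0.0907 and 0.0755 CPM in wild type and 7.71, 6.93 and 7.43 CPM in the knockout. The wild-type libraries together held 17 Col23a1 counts and the knockout libraries 919, so the gene was close to the detection floor in the first and well counted in the second. The fitted log2 fold change was 5.84 (SE 0.23, edgeR adjusted p = 9.05e-08). Col23a1 passed the filter on low counts only through the knockout group, so its direction, too, is a description and not independent of the filter. Over the settings tried, its log2 fold change ran from 5.62 to 6.41. Of the other transmembrane chains, Col17a1 did not pass (log2 fold change 0.39, edgeR adjusted p = 0.221), Col13a1 had 3 and 2 counts, and Col25a1 had 0 counts in wild type and 6 in the knockout. Col25a1 was at least 2.16-fold higher, taking 3 counts over the wild-type group as the floor, and was not tested.

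Type VI collagen forms beaded filaments near the cell surface from Col6a1, Col6a2 and one of several longer chains. Col6a1 had 182, 213 and 204 CPM in wild type and 139, 168 and 161 CPM in the knockout (log2 fold change -0.36, SE 0.09, edgeR adjusted p = 0.00766). Col6a3 had 4.27, 4.35 and 4.93 CPM in wild type and 2.35, 3.05 and 2.63 CPM in the knockout (log2 fold change -0.75, SE 0.14, edgeR adjusted p = 0.00109). Both fell without overlap of the groups. Neither was called when a 1.5-fold change was the null. Col6a2 had 44.0, 54.0 and 49.4 CPM in wild type and 34.0, 44.9 and 46.3 CPM in the knockout, which overlapped and did not pass (log2 fold change -0.24, SE 0.13, edgeR adjusted p = 0.132). With the replicate block its adjusted p was 0.000500, in a range of 0.000500 to 0.380. Per 100 counts of Col6a1 there were 24.1 to 25.4 counts of Col6a2 in wild type and 24.6 to 28.7 in the knockout, which overlapped. Counts of Col6a3 per 100 of Col6a1 were 2.04 to 2.41 in wild type and 1.63 to 1.82 in the knockout. Col6a4 did not pass (log2 fold change -0.41, edgeR adjusted p = 0.159). Col6a5 had 15 counts in wild type and 2 in the knockout, and Col6a6 had 0 and 1.

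Col7a1, the chain of the anchoring fibrils that fasten the epidermis to the dermis, had 352, 490 and 475 CPM in wild type and 434, 645 and 620 CPM in the knockout. The groups overlapped through the libraries numbered 1, and the log2 fold change of 0.37 (SE 0.17) did not pass (edgeR adjusted p = 0.0814). With the replicate block it was called higher (adjusted p = 1.2e-07, in a range of 3.28e-09 to 0.213). The keratins Krt5 and Krt14 of basal skin epithelium had 0 counts in all libraries. The multiplexins Col18a1 and Col15a1 are basement membrane zone collagens that release anti-angiogenic fragments. Col18a1 had 160, 202 and 196 CPM in wild type and 135, 168 and 175 CPM in the knockout, overlapping (log2 fold change -0.22, SE 0.12, edgeR adjusted p = 0.135). With the replicate block Col18a1 was called lower (adjusted p = 3.61e-05, in a range of 3.61e-05 to 0.376). Col15a1 fell from 0.667 ± 0.0843 to 0.175 ± 0.0511 CPM (SD, n = 3; log2 fold change -1.89, edgeR adjusted p = 0.000490), having passed the filter only through the wild-type group.

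The calls that changed with the block were those of Col1a1, Col4a2, Col5a1, Col6a2, Col7a1 and Col18a1. In each of these chains library 1 was the lowest of its group, and the chain differed in the same direction within each of the 3 replicate numbers. Nothing states that the numbers pair the libraries, and the p-values of the block depend on such pairs.

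The 12 remaining chains were too rare to be tested. Col9a1, Col10a1 and Col26a1 had 0 counts in every library, where 3 counts correspond to 0.0587 to 0.0766 CPM in a library. The other 9 had at most 27 counts over a group. Col28a1 had 2 counts in wild type and 9 in the knockout (ratio 4.87, 95% exact interval 1.007 to 46.3), and Col6a5 had a ratio of 6.94 in the other direction (1.61 to 62.5). With no filter on low counts, the adjusted p was 0.0395 for Col2a1 and 0.0499 for Col6a5, both lower in the knockout, and the other untested chains did not pass.

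Levels of different chains can be compared only per length. Per kb of union exon length, Col1a1 was the highest chain of both groups, at 294 ± 55.6 CPM per kb in wild type and 222 ± 47.2 in the knockout (SD, n = 3). Next in wild type came Col4a2 at 105 ± 14.1 and Col4a1 at 102 ± 10.04, which did not differ beyond their spread, then Col5a1 at 72.4 ± 9.42 and Col1a2 at 68.8 ± 9.15, which did not either. Per kb of the longest transcript Col1a2 came next after Col1a1 in wild type, at 160 ± 21.3, because its annotated exons together are 12426 bases long and its longest transcript 5348. In the knockout Col1a2 was at 1.21 ± 0.167 CPM per kb of union exon length, and Col8a1 was at 40.1, beside 12.7 in wild type.

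As a share of all collagen chain counts, fibrillar chains made up 59.1% ± 0.946 in wild type and 45.8% ± 1.29 in the knockout (SD, n = 3). Type IV chains made up 23.8% ± 0.738 and 29.4% ± 0.606, FACIT chains 2.75% and 2.84%, and other chains 14.4% ± 0.215 and 22% ± 0.615. Col1a2 alone held 12.6% of the collagen counts in wild type and 0.264% in the knockout, so the shares of the other classes are not independent of it. As a share of the whole library, fibrillar chains with Col1a2 did not overlap between the groups, at 0.345 to 0.457% in wild type and 0.204 to 0.281% in the knockout. Col1a2 itself held 0.0751 to 0.0964% and 0.00122 to 0.00158%, so that separation cannot be read as a fall of the whole class. Col1a1 overlapped at 0.157 to 0.224% and 0.107 to 0.162%, and type IV chains overlapped at 0.147 to 0.179% and 0.138 to 0.175%. All 44 chains together overlapped between the groups, at 0.699% ± 0.0916 and 0.553% ± 0.0802, and without Col1a2 the means were 0.612% and 0.552%. These sums carry no test.

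**Figure D3:**
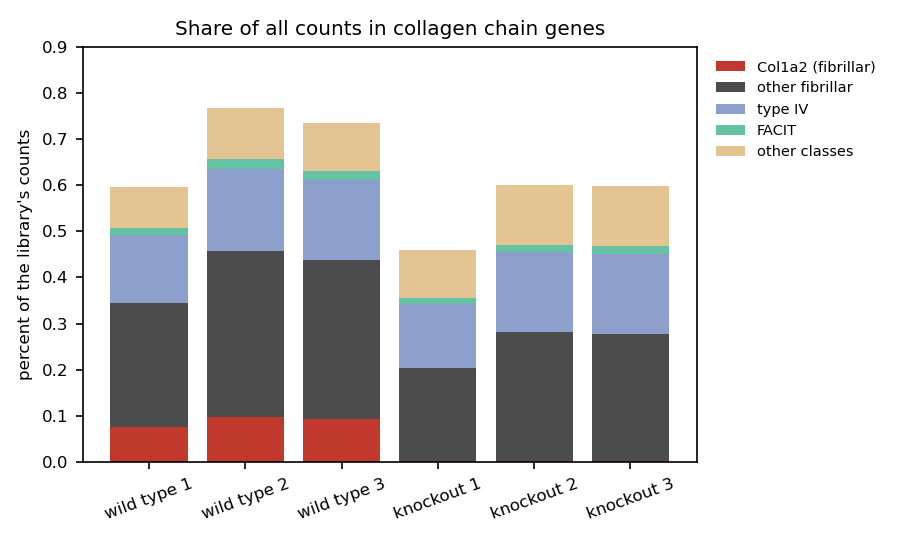
Percent of all counts of each library held by collagen chain genes, stacked by class from 0, with Col1a2 apart from the other fibrillar chains. Library 1 is the shortest bar of each group. The fibrillar part, Col1a2 included, is smaller in the knockout libraries (0.204 to 0.281%) than in the wild-type libraries (0.345 to 0.457%).

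**Figure D4:**
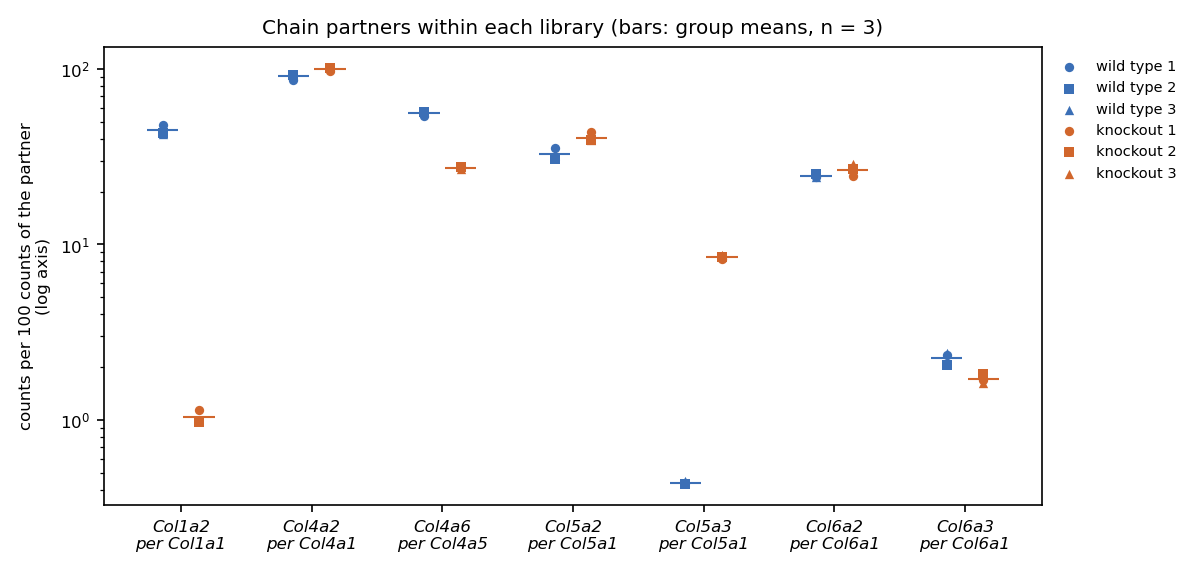
Counts of a chain per 100 counts of a chain it assembles with, in each library, on a log axis, with bars at the group means. Col1a2 per Col1a1 drops from 42.9 to 48.0 in wild type to 0.976 to 1.14 in the knockout, Col5a3 per Col5a1 goes from 0.431 to 0.449 up to 8.28 to 8.72, and Col6a2 per Col6a1 overlaps.

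Genes that act on collagen were read from 4 lists, whose counts stand beside 31.9% higher and 32.1% lower among all genes tested, 64.0% in all, and 13.5% and 13.2% against a fold of 1.5. Of 23 modifying enzymes and chaperones, 21 were tested, 7 were higher, 10 lower and 4 did not pass (81.0% called, beside 64.0% of all genes), with a median log2 fold change of -0.20. Against a fold of 1.5, 2 were higher and 2 lower. P4ha1, a prolyl 4-hydroxylase whose product stabilises the triple helix, rose from 116 ± 5.74 to 166 ± 9.03 CPM (SD, n = 3; log2 fold change 0.52, edgeR adjusted p = 0.000197). Tmem38b, an endoplasmic reticulum cation channel needed for collagen synthesis in bone, rose from 8.42 to 25.1 CPM (log2 fold change 1.58, edgeR adjusted p = 1.22e-06). Creb3l1, a transcription factor known to act on type I collagen genes in bone, fell from 23.8 to 7.39 CPM (log2 fold change -1.69, edgeR adjusted p = 3.28e-06). P3h4, part of a lysyl hydroxylation complex, fell from 84.5 to 37.6 CPM (log2 fold change -1.17, edgeR adjusted p = 3.11e-05). P3h2, a prolyl 3-hydroxylase acting on type IV collagen, had a log2 fold change of 0.89 (edgeR adjusted p = 1e-05), but 28.4% of its exon length lies under Gm4524 on the opposite strand. The collagen chaperone Serpinh1 had 217 and 230 CPM and did not pass (log2 fold change 0.08, edgeR adjusted p = 0.458). The lysyl hydroxylase Plod2 did not pass either (log2 fold change 0.01, edgeR adjusted p = 0.915), and P4ha3 had 54 counts in wild type and 0 in the knockout, at least 16.6-fold lower with 3 counts over the knockout group as the floor.

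Of 14 genes for procollagen processing and crosslinking, 11 were tested, 2 were higher, 8 lower and 1 did not pass (90.9% called, beside 64.0% of all genes; median log2 fold change -0.47). Against a fold of 1.5, 1 was higher and 4 were lower. Of the lysyl oxidases, which crosslink collagen and elastin, Lox was higher and Loxl1, Loxl2, Loxl3 and Loxl4 were lower. The falls of Loxl1 (log2 fold change -0.47, edgeR adjusted p = 0.0301) and Loxl4 (-0.29, edgeR adjusted p = 0.0229) were small and not called against a fold of 1.5. Loxl2, which acts on type IV collagen among others, had 47.0, 44.3 and 41.8 CPM in wild type and 0.650, 0.610 and 0.843 CPM in the knockout. It fell with no overlap of the groups (log2 fold change -5.98, SE 0.13, edgeR adjusted p = 5.05e-09), on 6015 and 87 counts. Loxl3 fell from 107 to 15.9 CPM (log2 fold change -2.75, edgeR adjusted p = 1e-06), with 11.6% of its exon length under Htra2 on the opposite strand. Lox rose from 231 to 415 CPM (log2 fold change 0.85, edgeR adjusted p = 1.43e-05). Pcolce2, an enhancer of procollagen C-terminal cleavage, fell from 30.6 to 11.5 CPM (log2 fold change -1.41, edgeR adjusted p = 2.6e-06). Bmp1, which cleaves that end, did not pass (log2 fold change -0.22, edgeR adjusted p = 0.131), and was called lower with the replicate block (adjusted p = 1.97e-05, in a range of 1.97e-05 to 0.365).

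Of 13 collagen receptors, 10 were tested, 2 were higher, 5 lower and 3 did not pass (70% called, near the 64.0% of all genes; median log2 fold change -0.29), and against a fold of 1.5 the counts were 2 higher and 3 lower. Both discoidin domain receptors, which are collagen-activated tyrosine kinases, fell. Ddr1 had 146 and 74.3 CPM (log2 fold change -0.98, edgeR adjusted p = 0.00101), and Ddr2 had 488 and 324 CPM (log2 fold change -0.59, edgeR adjusted p = 6e-05). The collagen-binding integrin chain Itga2 rose from 3.82 to 27.3 CPM (log2 fold change 2.83, edgeR adjusted p = 1.35e-07), while Itga10 fell from 14.8 to 5.82 CPM (log2 fold change -1.35, edgeR adjusted p = 2.4e-06). Adgrg1, an adhesion receptor for type III collagen, fell from 15.1 to 7.41 CPM (log2 fold change -1.03, edgeR adjusted p = 4.25e-05). Mrc1, a mannose receptor that also takes up collagen, rose from 0.483 to 2.10 CPM (log2 fold change 2.10, edgeR adjusted p = 3.72e-05). The collagen uptake receptor Mrc2 did not pass (log2 fold change 0.01, edgeR adjusted p = 0.951).

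Of 18 collagen-binding matrix genes, 12 were tested, 5 were higher, 6 lower and 1 did not pass (91.7% called, beside 64.0% of all genes; median log2 fold change -0.26), with 4 higher and 3 lower against a fold of 1.5. The proteoglycan Dcn, which binds type I fibrils, had 1.66, 1.18 and 0.982 CPM in wild type and 37.9, 29.2 and 31.1 CPM in the knockout (log2 fold change 4.66, SE 0.19, edgeR adjusted p = 1.08e-07). Its groups lay far apart. Fn1, the fibronectin gene, rose from 1969 to 3851 CPM (log2 fold change 0.97, edgeR adjusted p = 6.63e-06), and Prelp, a small proteoglycan of basement membranes, rose from 0.186 to 1.52 CPM (log2 fold change 3.02, edgeR adjusted p = 5.45e-06). Prelp lay under the filter's bar in every wild-type library and so was tested only through the knockout group. Sparc, a collagen-binding glycoprotein, fell from 2094 to 1413 CPM (log2 fold change -0.57, edgeR adjusted p = 4.46e-05). Nid2, which links type IV collagen to laminin, fell from 8.85 to 2.27 CPM (log2 fold change -1.96, edgeR adjusted p = 6.06e-07), and Thbs1, thrombospondin 1, fell from 4225 to 1703 CPM (log2 fold change -1.31, edgeR adjusted p = 5.19e-07).

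**Figure D5:**
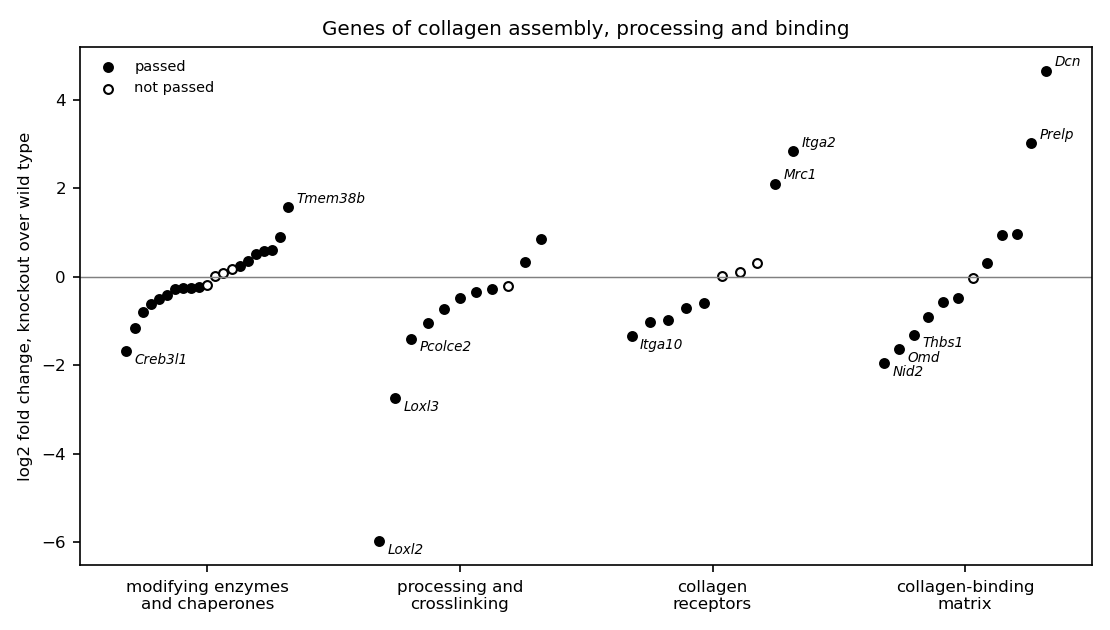
Log2 fold change, knockout against wild type, of the tested genes of 4 lists around collagen, 1 point per gene, filled where the gene passed, with genes far from 0 labelled. Loxl2 at -5.98 and Dcn at 4.66 lie farthest from 0, and every list holds points on both sides.

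Markers of cells that make collagen were present in part and moved with the groups. The fibroblast list of 7 genes, 4 of them below 1 CPM in both groups, summed to 40.4 to 43.3 CPM in wild type and 81.6 to 91.3 CPM in the knockout. Dcn accounted for most of that difference, and Pdgfra went from 39.8 to 49.1 CPM. Pi16 rose from 0.285 to 2.83 CPM (edgeR adjusted p = 9.4e-06), but reached the filter's bar of 0.235 CPM in every library of the knockout only. The untested Dpt had 15 counts in wild type and 48 in the knockout, and Fap had 6 and 15. Lum, with 0 counts in wild type and 1 in the knockout, and Thy1, with 7 and 0, were near the floor. The pericyte and smooth muscle list of 7 genes, 3 of them below 1 CPM in both groups and Abcc9 at 0, summed to 85.5 to 101 CPM in wild type and 122 to 137 CPM in the knockout, most of it Pdgfrb, which rose from 81.2 to 129 CPM. Of the other genes of that list, Myh11 was higher, with 18 counts in wild type and 51 in the knockout (edgeR adjusted p = 0.0134). Cspg4, Rgs5 and Notch3 were lower (edgeR adjusted p of 7.92e-08, 7.83e-06 and 0.000548). Cspg4 had 1164 counts in wild type and 16 in the knockout, Rgs5 fell from 2.63 to 0.472 CPM and Notch3 from 1.68 to 0.318 CPM. Cspg4 and Notch3 reached the filter's bar in every library of wild type only, and Myh11 in every library of the knockout only. They were thus tested through that group alone. The endothelial list of 8 genes, 4 of them below 1 CPM and Cldn5 at 0, summed to 403 to 435 CPM and 421 to 458 CPM, nearly all of it Cdh5, which did not pass. Kdr rose from 1.65 to 7.78 CPM, while Tek fell from 1.40 to 0.295 CPM and Egfl7 from 4.25 to 2.10 CPM (edgeR adjusted p of 2.33e-06, 5.49e-05 and 0.000904). The myeloid sum was 0.478 to 0.646 CPM in wild type and 0.792 to 0.941 CPM in the knockout with Adgre1 and Tyrobp at 0. Its members, none of them tested, moved both ways. Lyz2 had 1 count in wild type and 44 in the knockout, Fcer1g 16 and 37 and Itgam 0 and 2. Ptprc went the other way with 31 and 11, Csf1r with 23 and 10 and Cx3cr1 with 7 and 4. The T cell sum was at most 0.128 CPM in any library with Cd3e, Cd3g and Cd8a at 0. The glia and neuron list of 9 genes, 7 of them below 1 CPM, summed to 2.35 to 3.05 CPM and 1.64 to 1.88 CPM. The skin epithelium list of 4 genes, 3 of them below 1 CPM, summed to 1.27 to 2.01 CPM and 1.12 to 1.43 CPM. The part of such cells in the collagen differences was not tested.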

How the data were processed

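Poly(A) RNA of 3 PP2AcWT and 3 PP2AcKO SB28 samples was sequenced. The authors deposited raw read counts per gene symbol, with 1 column per library matched by sample title and 0 columns of other samples. The builds mm10 and GRCm38 and the tools HTSeq 0.11.2, STAR 2.7.1a, fastp 0.20.0, limma 3.48.3 and edgeR 3.34.0 are listed, with no roles, per the submitters' processing notes. The strand setting is not given in the sources used here.

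The deposited counts of all genes were fitted with edgeR 4.0.16: filterByExpr (a bar of 0.235 CPM), TMM factors (0.967 to 1.04), the quasi-likelihood F-test and Benjamini-Hochberg adjustment over 14877 genes, threshold 0.05. The tested genes hold 99.9% of the counts, and the common biological coefficient of variation was 0.0957. The script was tested on simulated data. CPM was computed from the deposited counts on TMM-scaled library sizes. Coordinates and exon lengths are from GENCODE M21 (GRCm38), in which 54402 of 55453 symbols and all 44 chains matched 1 gene, and promoters are from RefSeq. Intervals are exact binomial at 95% and cover counting error only.

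Replicate numbers come from the sample titles. Deviations from the group means correlated between same-numbered libraries at r = 0.443, 0.161 and 0.150 over 14877 genes. Only the replicate block treats the numbers as pairs, and the fit used throughout does not. The correlations of libraries with different numbers ran from -0.299 to 0.189, and numbers 2 and 3 were as alike across numbers as within them.

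The members and gene lists were chosen with earlier results of these data known. Chains were named with the value of each library where the mean reached 1 CPM in a group. From each of the 4 lists the 4 tested genes with the smallest p were named, besides Serpinh1, P4ha1, Plod2, Bmp1, Lox, Ddr1, Ddr2, Mrc2, Sparc and Fn1. The motifs, the untested P4ha3, Loxl1 and Loxl4 were chosen in addition. Alternatives were RLE and upper-quartile factors, no or a stricter filter (1 CPM in 3 libraries), DESeq2 1.42.0, limma voom 3.58.1, a test against a fold change of 1.5, the replicate block, leaving out each library or both libraries numbered 1, and the longest transcript as length.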

Additional observations from a re-analysis of the deposited data

How the results depend on the processing

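Blocking on the replicate number, 11 collagen chains were higher and 15 lower, and 5721 and 5774 of all genes. Leaving out each library in turn gave 8 to 11 higher and 10 to 14 lower chains. The test against a fold change of 1.5 gave 2009 higher and 1957 lower of all genes, 7 lower chains, 2 higher and 2 lower modifying enzymes, 1 higher and 4 lower processing genes, 3 lower receptors and 3 lower matrix genes. The stricter filter kept 24 chains, 7 of them lower. Upper-quartile factors moved the median of all genes to -0.07 and their calls to 4298 higher and 5296 lower, and gave 1 higher processing gene. Leaving out 1 library gave 1 to 2 higher and 5 to 10 lower processing genes, with 5 lower without wild-type library 2 or 3. With the longest transcript as length, the median level was 17.5 instead of 13.9 CPM per kb in wild type and 10.2 instead of 8.94 in the knockout. Signs turned in 5 genes that did not pass. With upper-quartile factors Col4a1 was at -0.018, Col5a2 at -0.032, Plod2 at -0.051 and Mrc2 at -0.053. Leaving out 1 library moved Col4a1 between -0.032 and 0.16, Col3a1 between -0.13 and 0.024, Col5a2 between -0.019 and 0.10, Plod2 between -0.084 and 0.11 and Mrc2 between -0.11 and 0.15. Depth limits the chains below 1 CPM.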

Other observations

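Genes within 500 kb of the chains that changed at least 2-fold and reached 1 CPM were listed; this selection was made after the values were seen. Around Col1a2 7 neighbours were tested, of which 3 were lower, 2 higher and 2 did not pass, with a median log2 fold change of 0.10. Peg10, an imprinted retrotransposon-derived gene, fell from 178 to 64.3 CPM (log2 fold change -1.47, edgeR adjusted p = 1.23e-07), and Casd1, which acetylates sialic acids, fell from 32 to 21.9 CPM (log2 fold change -0.55, edgeR adjusted p = 0.00157). Gng11, which encodes a G protein gamma subunit, was higher at 10.9 than at 3.84 CPM (log2 fold change 1.5, edgeR adjusted p = 2.85e-05), while Sgce did not pass (log2 fold change 0.19, edgeR adjusted p = 0.115). Gm43921, an unclassified transcript annotated on the same strand inside Col1a2 (chr6:4506087-4507878), is among the 3 lower neighbours, though its position does not set it apart from Col1a2. It had 68 counts in wild type and 0 in the knockout, at least 21.0-fold lower with 3 counts over the knockout group as the floor. Gm43921 passed the filter through wild type only.

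The rule took in 8 chains, and these counts stand beside 31.9% higher and 32.1% lower among all genes tested. Around Col23a1, 23 neighbours were tested, of which 3 rose as Col23a1 did, 11 fell and 9 did not pass. Around Col5a3 the counts were 7 higher, 9 lower and 9 not passing of 25, and around Col8a1 1, 2 and 2 of 5. Around Col9a3 they were 7 higher, 2 lower and 4 not passing of 13, with Col20a1, itself a collagen chain gene, among those higher. Around Col11a2 they were 13, 8 and 16 of 37, a higher share near that of all genes. The median log2 fold change of the tested neighbours was 0.25 around Col9a3 and -0.15 around Col11a2. Around Col4a6, which fell, 2 neighbours fell, Col4a5 among them, 1 rose and 1 did not pass. Around Col11a1, which also fell, no tested neighbour fell, 1 rose and 1 did not pass.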
